A study of Homo sapiens with 6 samples.

Results

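The insulin-like growth factor (IGF) binding proteins IGFBP1 to IGFBP7, the receptors IGF1R and IGF2R and the adaptor IRS1 were followed in MDA-MB-231 cells, an invasive triple-negative breast cancer line, with and without a stable hairpin against ATAD3A. Members were all probe sets of the Affymetrix U133 Plus 2.0 array annotated to one of these 10 gene symbols and to no other, which gave 27 of 54613 probe sets. ATAD3A encodes a mitochondrial inner-membrane ATPase. The shATAD3A group (3 arrays) carried a pLKO.1 lentiviral hairpin against ATAD3A, and the shGFP group (3 arrays) carried the same vector with a hairpin against GFP, a sequence human cells lack. Both groups had been under puromycin (1.0 µg/ml) for 2 weeks, were resistant to it and were at passage 2, so infection and selection were common to both. The labels name the hairpin's target but no second hairpin or rescue, and nothing in them tells whether the replicates came from different cultures. The p-values thus reflect the spread among 6 arrays, which could be technical, and their small number limits the precision.

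IGF1 and IGF2 are secreted growth factors that signal through the tyrosine kinase receptor IGF1R, which phosphorylates adaptors such as IRS1 and so recruits PI3-kinase. The high-affinity binding proteins IGFBP1 to IGFBP6 hold the ligands outside the cell and can lower or prolong their action, while IGFBP7 binds IGFs only weakly and has functions in the vessel wall and matrix. IGF2R is the cation-independent mannose 6-phosphate receptor: it takes IGF2 to the lysosome for degradation and sorts newly made lysosomal enzymes.

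IGFBP6 rose most in the shATAD3A cells and IGFBP7 fell, while the other binding proteins were either in the low mode of the array values or did not pass the test. IGF2R rose slightly. The probe sets of IGF1R disagreed, and IRS1 read lower without passing the test. By the brightest probe set of each gene, 2 of 10 genes rose, 1 fell and 7 were not called, where 19.7% of all genes rose and 13.9% fell.

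For IGFBP6 and IGF2R, which rose on their brightest probe sets, the 250 bases before the start site (RefSeq promoter table, GRCh38.p14) are shown because they differ in base composition and in short motifs. Of the 10 members, 8 had an entry. Capitals mark the GC box GGGCGG (or CCGCCC, its other strand) and the E-box core CACGTG, which reads the same on both strands. Overlapping matches were each counted.
IGFBP6, chr12:53097417-53097666, plus strand: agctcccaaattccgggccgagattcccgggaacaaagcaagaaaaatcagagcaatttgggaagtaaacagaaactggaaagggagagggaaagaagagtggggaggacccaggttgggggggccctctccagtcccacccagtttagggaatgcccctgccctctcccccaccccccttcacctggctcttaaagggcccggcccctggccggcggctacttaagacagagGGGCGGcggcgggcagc
IGF2R, chr6:159968832-159969081, plus strand: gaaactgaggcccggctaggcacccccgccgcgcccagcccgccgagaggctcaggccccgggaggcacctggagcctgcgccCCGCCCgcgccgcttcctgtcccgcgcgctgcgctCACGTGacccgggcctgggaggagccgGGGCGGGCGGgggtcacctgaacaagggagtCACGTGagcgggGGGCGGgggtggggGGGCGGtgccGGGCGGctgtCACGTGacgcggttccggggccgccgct

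The IGFBP6 stretch held 1 GC box and 0 E-box cores, with 61.2% G or C. The IGF2R stretch held 6 GC boxes and 3 E-box cores, with 79.2% G or C, more than 95.8% of the 35116 start sites in the table. At least 1 GC box was present in 42.6% of all promoters, and at least 1 E-box core in 6.34%. At least 3 E-box cores were present in 28 promoters (0.0797%), of which IGF2R is one. The motifs were chosen after these sequences had been seen, and a match describes letters, not a bound site.

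Expression is given as deposited log2 values and each change as shATAD3A minus shGFP. An SD is over the 3 arrays of a group, and an SE comes from the limma fit. Over all arrays the values formed a low mode of probe sets with little signal and a broad upper range. The density of mean values, taken on the brightest probe set of each gene and searched over a middle range, was lowest at 4.70. Any probe set with both group means below that value is described as in the low mode, a cut-off set with the values in view. Array medians lay between 3.16 and 3.23, and correlations across probe sets were at least 0.9986 between arrays of the same group and at most 0.9898 between arrays of different groups. The targeted gene read 7.41, 7.03 and 7.39 in shATAD3A arrays, against 7.73, 7.78 and 7.80 in shGFP arrays, so the groups did not overlap. ATAD3A changed by -0.49 ± 0.107 (SE; limma adjusted p = 0.0220), on a probe set of the x_at type whose probes may bind related transcripts. The call was lost without any one of the shGFP arrays (adjusted p between 0.0596 and 0.0748). Of markers fixed for the cell line, VIM, CD44, AXL, ERBB2 and EPCAM were above the low mode in both groups, and SPARC, ESR1 and PGR were in it. By limma on the brightest probe sets, the epithelial adhesion molecule EPCAM rose by 1.98 (adjusted p = 1.17e-05) and ERBB2 by 0.51 (adjusted p = 0.00251). On theirs, CD44 fell by 0.34 (adjusted p = 0.000451) and AXL by 0.26 (adjusted p = 0.00203). Another CD44 probe set above the low mode rose by 0.89 (limma adjusted p = 0.000847). The remaining CD44 probe sets above the low mode were called lower, with changes from -1.01 to -0.46. The other AXL probe set had a change of 0.050 that did not pass (limma adjusted p = 0.836). VIM did not pass. The summed log2 values of these 8 markers ranged from 71.4 to 71.6 in shATAD3A arrays and from 69.4 to 69.6 in shGFP arrays. This sum pools markers that rose with markers that fell, and EPCAM had the largest change among them.

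Calls were common in this comparison. A call is a Benjamini-Hochberg adjusted p under 0.05 by limma over all probe sets. Of the 27 member probe sets, 4 rose (14.8%), 3 fell (11.1%) and 20 were not called. Over all probe sets 12.0% rose and 10.5% fell, and 22.4% were called either way. In the low mode lay 10 of the 27, and 0 of these were called by limma and 0 had an unadjusted p under 0.05 (smallest adjusted p = 0.596). Of the other 17, 7 were called (41.2%), against 52.2% of all probe sets above the low mode. On 1 probe set per gene, 3 of the 8 genes above the low mode were called (37.5%), against 62.0% of all such genes. The members were thus called about as often as all probe sets, and less often than others above the low mode in these counts, whose difference was not tested. The median change of the 10 member genes was -0.017, against -0.00084 over all 19775 genes.

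**Figure D1:**
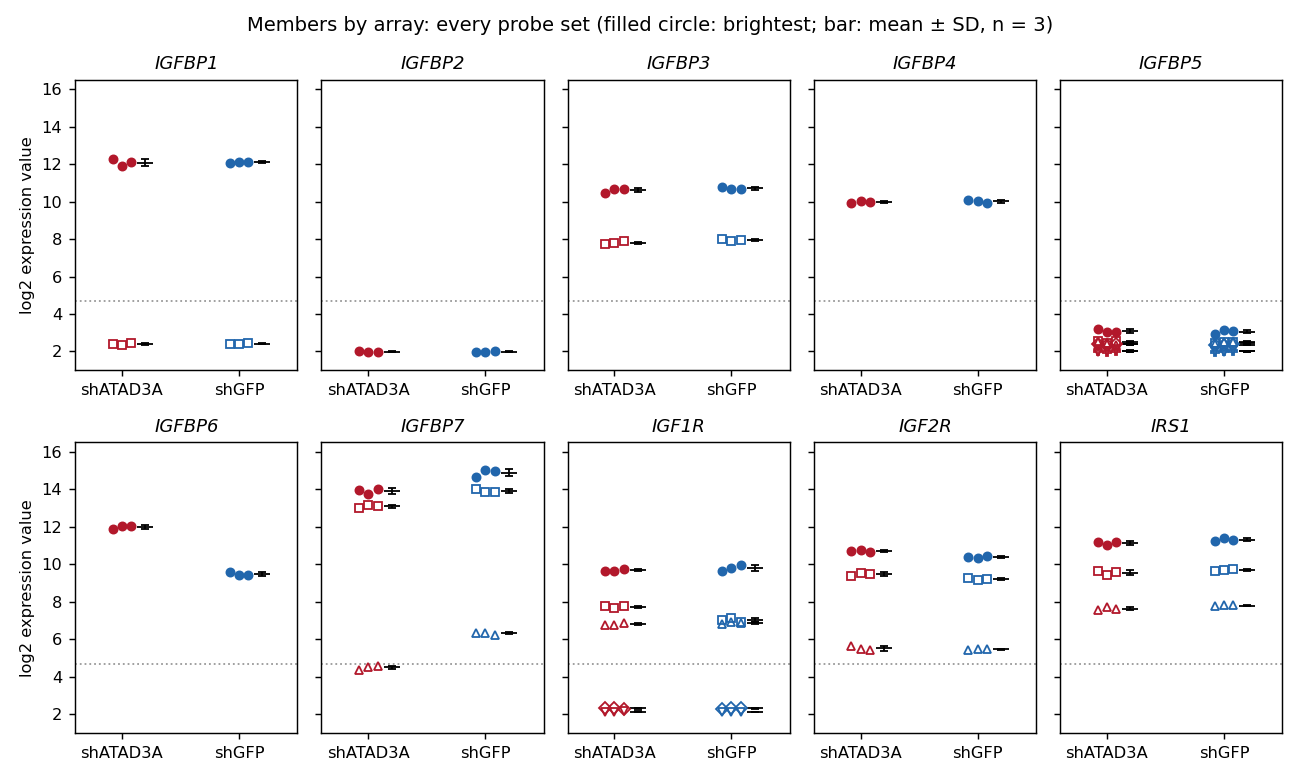
Log2 expression value (vertical axis) of every member probe set on each array, with the 3 shATAD3A arrays (red) left of the 3 shGFP arrays (blue) in each panel. Filled circles are the brightest probe set of a gene, open shapes its other probe sets, bars the mean ± SD, and the dotted line the low mode boundary at 4.70. IGFBP6 stands higher and IGFBP7 lower in all shATAD3A arrays, and IGFBP2 and IGFBP5 lie in the low mode.

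Among the binding proteins, IGFBP6, which prefers IGF2 over IGF1, showed the largest change. IGFBP6 (probe set 203851_at, its only one) read 11.9, 12.0 and 12.1 in shATAD3A arrays, against 9.60, 9.40 and 9.41 in shGFP arrays. Every shATAD3A array lay far above every shGFP array, and the spread within each group was small beside the gap. Its means were 12.0 ± 0.092 in shATAD3A cells and 9.47 ± 0.11 in shGFP cells (SD, n = 3 each), which is 5.72-fold. The change was 2.52 ± 0.0742 (SE; limma adjusted p = 1.66e-05). By size it was the 104th largest rise among 19775 genes. The call held under all 14 other settings run on it, with changes from 2.48 to 2.58. In such bulk RNA, a change in the share of cells that make a transcript and a change in the RNA per cell cannot be told apart. On their brightest probe sets, EPCAM and ERBB2 rose alongside, and CD44 and AXL fell. The part of these markers in the IGFBP6 result was not tested.

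IGFBP7, a secreted protein of the vessel wall also known as angiomodulin, fell on all 3 of its probe sets. The brightest, 201163_s_at, read 14.0, 13.7 and 14.0 in shATAD3A arrays, against 14.7, 15.0 and 15.0 in shGFP arrays. The groups did not overlap. The level was 49.1% lower, with a change of -0.98 ± 0.121 (SE; limma adjusted p = 0.00239). Probe set 201162_at read 13.0, 13.2 and 13.1 in shATAD3A arrays, against 14.0, 13.9 and 13.8 in shGFP arrays, a change of -0.81 (limma adjusted p = 0.000419). The dimmest, 213910_at, read 4.38, 4.54 and 4.56 in shATAD3A arrays, against 6.35, 6.35 and 6.25 in shGFP arrays. Its change of -1.83 (limma adjusted p = 2.19e-05) gives no reliable size, since the shATAD3A values lie below the low mode boundary. All 3 probe sets gave the same direction, and on the brighter ones the level was 1.97-fold and 1.75-fold lower. Both brighter probe sets read at least 13.0 on every shATAD3A array. Of 8 fibroblast markers, which mark a cell type that also makes IGFBP7, 7 were in the low mode in both groups, including DCN, COL1A2 and PDGFRB. The summed log2 values of the 8 ranged from 29.4 to 29.8 in shATAD3A arrays and from 27.7 to 28.3 in shGFP arrays. By limma 2 of the 8 were called higher and 0 lower, where 19.7% of all genes rose and 13.9% fell. One of the 2 called, LUM, was in the low mode in both groups. The other, COL1A1, rose by 1.01 on its brightest probe set (limma adjusted p = 0.000116), while another COL1A1 probe set above the low mode had a change of -0.37 that did not pass (adjusted p = 0.152) and the remaining 3 lay below the boundary with no call. The part of these markers in the IGFBP7 result was not tested.

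IGFBP1, IGFBP3 and IGFBP4 were well above the low mode and did not pass the test. IGFBP1, typically a liver product regulated by insulin, read 12.2, 11.9 and 12.1 in shATAD3A arrays, against 12.0, 12.1 and 12.1 in shGFP arrays. The groups overlapped, and the change of -0.0077 had a 95% interval from -0.25 to 0.23. The second IGFBP1 probe set was in the low mode. The hepatocyte markers ALB, APOA1, APOB, TTR and FGB were in the low mode in both groups. SERPINA1 was the hepatocyte marker above it, and it fell by 3.91 (limma adjusted p = 5.58e-05). Its shATAD3A values of 4.82, 4.64 and 5.47 lay near the low mode boundary, so this fall gives no reliable size. The sums of the 6 hepatocyte markers ranged from 17.2 to 17.8 in shATAD3A arrays and from 20.9 to 21.5 in shGFP arrays. SERPINA1 had by far the largest change among these 6, and the others were not called.

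IGFBP3, the main carrier of IGFs in blood, read 10.5, 10.7 and 10.7 in shATAD3A arrays on its brightest probe set, against 10.8, 10.7 and 10.7 in shGFP arrays. The groups overlapped (change -0.095, 95% interval from -0.27 to 0.077). The other IGFBP3 probe set, 212143_s_at, read 7.75, 7.78 and 7.87 in shATAD3A arrays, just below the 7.98, 7.88 and 7.94 of shGFP arrays. Its change of -0.13 did not pass (limma adjusted p = 0.118), and it passed after quantile normalization (adjusted p = 0.0274). IGFBP4, which is cleaved by the protease PAPPA, read 9.93, 10.0 and 10.0 in shATAD3A arrays, against 10.1, 10.0 and 9.94 in shGFP arrays. Its change of -0.022 had a 95% interval from -0.14 to 0.092.

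IGFBP2 (1 probe set) and IGFBP5 (6 probe sets) lay in the low mode on all arrays, with values between 1.95 and 3.22, so no difference could be detected for them. The largest change in size among the low-mode members was 0.061, on an IGFBP5 probe set. In the gene table of GRCh38.p14, IGFBP2 and IGFBP5 are next to each other on chromosome 2, and IGFBP1 and IGFBP3 on chromosome 7, with 0 protein-coding genes between. Both genes of the chromosome 2 pair were thus in the low mode, and both genes of the chromosome 7 pair were above it without passing the test.

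**Figure D2:**
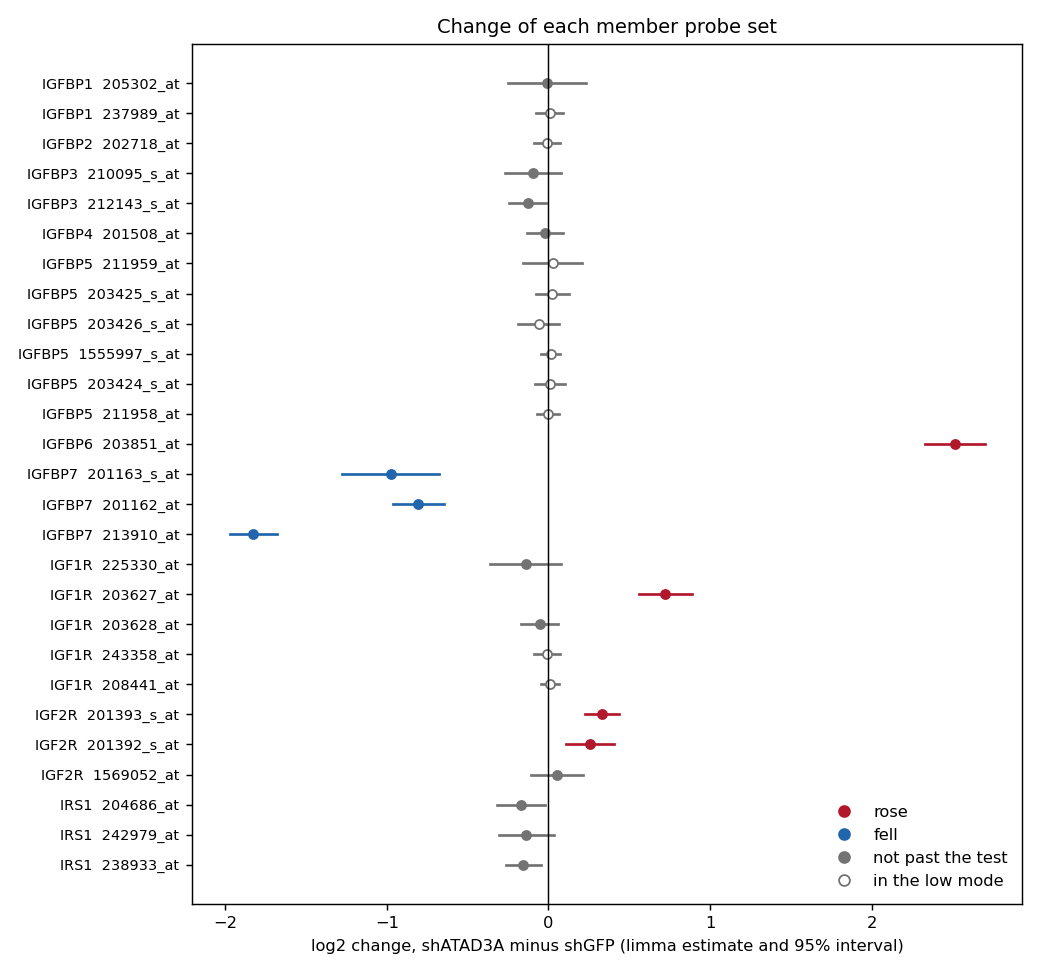
Log2 change (horizontal axis, shATAD3A minus shGFP) of each of the 27 member probe sets, with its 95% interval from the limma fit. Red marks a rise, blue a fall, grey a probe set that did not pass the test, and open circles those in the low mode. The change of 2.52 for IGFBP6 stands apart from the rest, and the 3 IGFBP7 probe sets lie between -1.83 and -0.81.

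Among the receptors, IGF2R rose on both of its brighter probe sets. The brightest, 201393_s_at, read 10.7, 10.8 and 10.6 in shATAD3A arrays, against 10.4, 10.3 and 10.4 in shGFP arrays. The groups did not overlap, and the level was 25.8% higher, with a change of 0.33 ± 0.0428 (SE; limma adjusted p = 0.00283). On 201392_s_at the values were 9.36, 9.56 and 9.48 in shATAD3A arrays and 9.27, 9.16 and 9.19 in shGFP arrays, a change of 0.26 (limma adjusted p = 0.0277). The call of this second probe set was lost under 7 of 14 other settings, with adjusted p up to 0.0970 (the fit with the replicate number as a block), whereas that of the brightest held under all 14. Both brighter probe sets are of the s_at type, whose probes may match several transcripts, as are 9 of the 27 members. The dimmest, 1569052_at, at 5.52 ± 0.12 in shATAD3A cells and 5.47 ± 0.031 in shGFP cells (SD, n = 3 each), did not pass (limma adjusted p = 0.763).

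IGF1R gave different readings on its 3 probe sets above the low mode. The brightest, 225330_at, read 9.63, 9.65 and 9.74 in shATAD3A arrays, against 9.65, 9.81 and 9.98 in shGFP arrays. These groups overlapped (change -0.14, 95% interval from -0.36 to 0.080). Probe set 203627_at read 7.77, 7.66 and 7.77 in shATAD3A arrays, against 7.01, 7.12 and 6.90 in shGFP arrays, without overlap, a rise of 0.72 ± 0.0657 (SE; limma adjusted p = 0.000709). The third, 203628_at, read 6.74, 6.78 and 6.87 in shATAD3A arrays, against 6.80, 6.89 and 6.87 in shGFP arrays (change -0.055, limma adjusted p = 0.583). Within each array, the difference between 203627_at and 203628_at was 1.03, 0.88 and 0.90 in shATAD3A arrays and 0.21, 0.23 and 0.032 in shGFP arrays. A two-sided exact permutation test of these differences gave p = 0.10, the smallest that 3 against 3 arrays allow (0.15 adjusted over the 3 pairs of probe sets compared). The same p held for 203627_at against 225330_at, where the change of 225330_at minus that of 203627_at was -0.86. With all probe sets of a gene averaged, IGF1R was called higher by 0.11 (limma adjusted p = 0.0412), against -0.14 on its brightest probe set, so no single direction can be given for IGF1R.

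IRS1, the adaptor that links IGF1R and the insulin receptor to PI3-kinase, read lower on all 3 probe sets without passing the test. The brightest, 204686_at, read 11.2, 11.0 and 11.2 in shATAD3A arrays, against 11.2, 11.4 and 11.3 in shGFP arrays. Its highest shATAD3A value, 11.20, was just below its lowest shGFP value, 11.25, and the change was -0.17 ± 0.0600 (SE; limma adjusted p = 0.114). The other 2 gave -0.14 (limma adjusted p = 0.277) and -0.16 (limma adjusted p = 0.0572). The last of these, 238933_at, passed after quantile normalization (adjusted p = 0.0181), when arrays were weighted (adjusted p = 0.0215), and when shATAD3A replicate 2 was left out (adjusted p = 0.0303). Averaged over its probe sets, IRS1 was called lower by limma, at -0.16 (adjusted p = 0.0218).

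Other genes of the pathway were taken as 84 genes in 7 lists, of which 79 had a probe set with a single symbol. IGF2 was among the 5 that had none. On 1 probe set per gene, 20 of the 79 rose, 22 fell (FOXO4, 1 of these, from within the low mode) and 37 did not pass (53.2% called, against 33.6% of all genes), with a median change of -0.0039. Of the 64 above the low mode 64.1% were called, close to the 62.0% of all such genes.

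Ligands and the sister receptors gave 0 calls among 5 genes by limma, and 0 also at an unadjusted p under 0.05. Of all genes 33.6% were called either way. IGF1, INS, INSRR and IGFALS were in the low mode. The insulin receptor INSR read 8.54, 8.70 and 8.83 in shATAD3A arrays, against 8.70, 8.63 and 8.57 in shGFP arrays, with overlapping groups. The smallest p of the list was that of IGFALS, the acid-labile subunit of the circulating complex (adjusted p = 0.443). The median change of this list was 0.011.

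Of the genes for IGFBP proteases and their inhibitors, 3 of the 4 above the low mode were called (75.0%), all of them lower. Of all genes above the low mode 62.0% were called either way. Of all 8 genes 3 fell (13.9% of all genes fell), 0 rose and 5 were not called, 4 of these in the low mode, and the median change was -0.32. HTRA1, a secreted serine protease that cleaves IGFBPs, read 6.50, 6.76 and 6.52 in shATAD3A arrays, against 8.68, 8.34 and 8.45 in shGFP arrays. That is a change of -1.90 ± 0.108 (SE; limma adjusted p = 5.55e-05). PAPPA, the metalloprotease that frees IGFs from IGFBP4, read 6.20, 5.66 and 6.10 in shATAD3A arrays, against 7.61, 7.79 and 7.74 in shGFP arrays, a change of -1.73 (limma adjusted p = 0.000245). Averaged over all PAPPA probe sets, including those in the low mode, the change was -0.75. STC1, a glycoprotein that inhibits PAPPA, changed by -1.43 ± 0.0797 (SE; limma adjusted p = 5.06e-05). ADAM9 had a change of 0.17 that did not pass (adjusted p = 0.126). PAPPA and its inhibitor were thus both lower, while the groups overlapped for IGFBP4, the substrate of PAPPA.

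Of 10 genes for proteins that share the IGFBP fold or were once named after it, 3 rose, 2 fell and 5 did not pass. Their median change was 0.034. Of the 7 above the low mode 71.4% were called, against 62.0% of all such genes. The 3 in the low mode, CCN4, CCN5 and CCN6, were not called. IGFBPL1 read 9.19, 9.39 and 9.45 in shATAD3A arrays, against 8.19, 8.18 and 8.08 in shGFP arrays, a rise of 1.19 (limma adjusted p = 7.60e-05). CCN2, the connective tissue growth factor, read 12.1, 12.0 and 12.1 in shATAD3A arrays, against 13.2, 13.3 and 13.3 in shGFP arrays, a change of -1.20 (limma adjusted p = 9.16e-06). ESM1 changed by -1.41 (limma adjusted p = 0.00881), which gives no reliable size because its shATAD3A mean lay below the low mode boundary. CCN3 rose by 0.29 on its brightest probe set (limma adjusted p = 0.00182) and read 0.055 higher without passing on its other one (adjusted p = 0.838), and averaging gave 0.17. CCN1 had a change of 0.064 (adjusted p = 0.778).

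**Figure D3:**
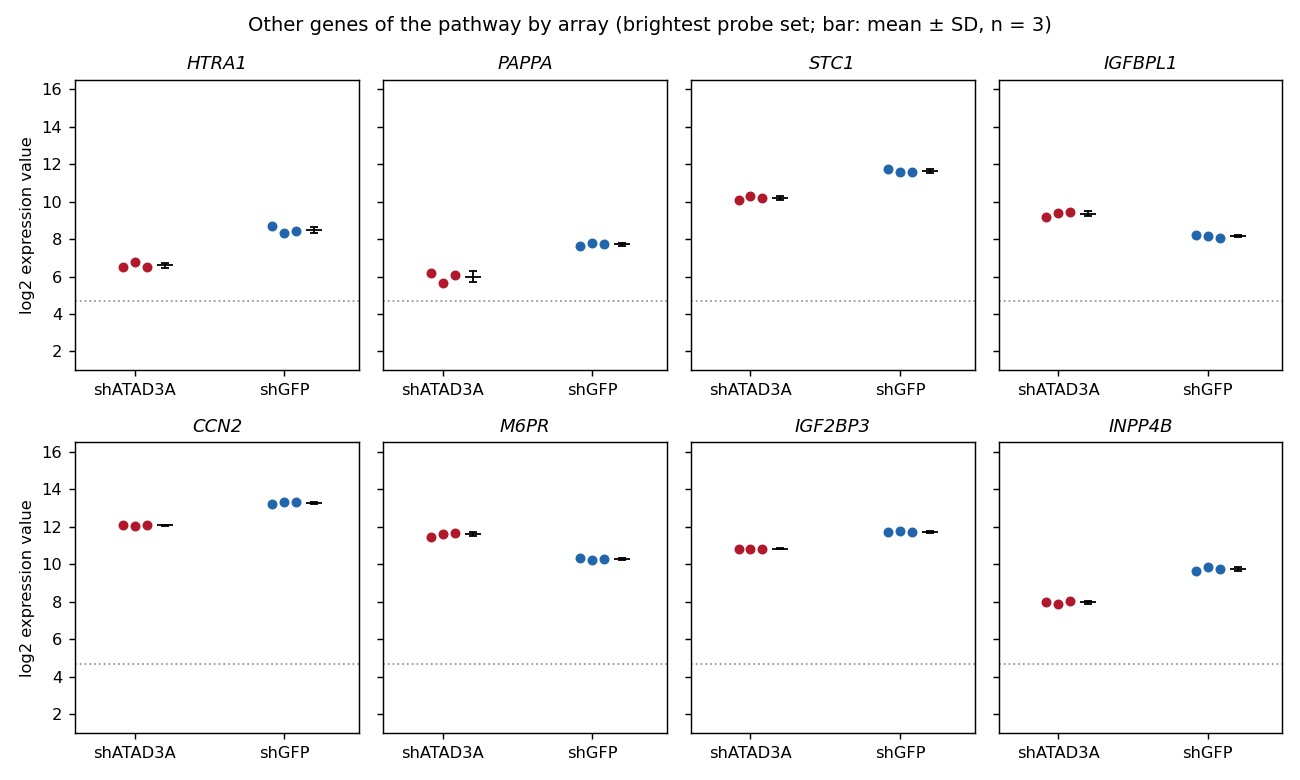
Log2 expression value (vertical axis) of 8 other pathway genes on each array, on the brightest probe set, with shATAD3A arrays (red) left of shGFP arrays (blue), bars for the mean ± SD and the low mode boundary dotted. HTRA1, PAPPA, STC1, CCN2, IGF2BP3 and INPP4B are lower and IGFBPL1 and M6PR higher in every shATAD3A array.

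The mannose 6-phosphate pathway, to which IGF2R belongs, had all 12 of its listed genes above the low mode: 7 rose, 2 fell and 3 did not pass, with a median change of 0.17. This was 75.0% called, against 62.0% of genes above the low mode. All genes above the low mode had a median change of 0.065. Of all genes, in the low mode or above it, 19.7% rose and 13.9% fell. M6PR, the smaller cation-dependent receptor, read 11.5, 11.6 and 11.7 in shATAD3A arrays, against 10.3, 10.2 and 10.3 in shGFP arrays, a rise of 1.31 ± 0.0584 (SE; limma adjusted p = 2.25e-05). NAGPA, which uncovers the mannose 6-phosphate tag, rose by 0.99 (limma adjusted p = 0.000211). GNPTAB, which encodes catalytic subunits of the enzyme that adds the tag, rose by 0.76 (limma adjusted p = 4.63e-05), and GNPTG, its other subunit, fell by 0.32 (limma adjusted p = 0.0110). The retromer genes VPS35, VPS29 and VPS26A, which return receptors from endosomes, rose by 0.41, 0.21 and 0.13. AP1M1, a subunit of the clathrin adaptor AP-1, fell by 0.36 (limma adjusted p = 0.000236).

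Of 3 genes for IGF2 mRNA-binding proteins, 1 fell, 0 rose and 2 did not pass, with a median change of -0.11. IGF2BP3 read 10.8, 10.8 and 10.8 in shATAD3A arrays, against 11.7, 11.8 and 11.7 in shGFP arrays, a change of -0.90 (limma adjusted p = 8.40e-06). Its call was lost when s_at and x_at probe sets were left out, where a dimmer one gave -0.32 (adjusted p = 0.0896). IGF2BP2 had a change of -0.11 (adjusted p = 0.137), and IGF2BP1 was in the low mode.

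Adaptors beside IRS1 were called in 10 of 15 cases, 4 higher and 6 lower, with a median change of -0.055. Of the 14 above the low mode 71.4% were called, against 62.0% of all such genes. IRS2, the second main insulin receptor substrate, read 9.82, 10.0 and 9.93 in shATAD3A arrays, against 10.6, 10.5 and 10.6 in shGFP arrays, a change of -0.66 (limma adjusted p = 0.000775). GRB14, an inhibitor of insulin receptor signalling, read 5.69, 5.51 and 5.63 in shATAD3A arrays, against 2.64, 2.76 and 2.80 in shGFP arrays. The shGFP values lie in the low mode, so the rise of 2.87 (limma adjusted p = 2.20e-06) gives no reliable size. SOCS3, a feedback inhibitor of cytokine and insulin signals, rose by 1.11 (limma adjusted p = 0.000182). Averaged over its probe sets, including those in the low mode, it rose by 0.45. The docking protein GAB1 fell by 0.75 (limma adjusted p = 0.00143), or by 0.34 when averaged with its low-mode probe sets included.

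Of 26 measured genes of PI3K, AKT and mTOR signalling, 6 rose, 8 fell and 12 did not pass, with a median change of -0.0031. Of the 24 above the low mode 54.2% were called, against 62.0% of all such genes. FOXO4, 1 of the 8, was in the low mode in both groups. INPP4B, a phosphatase that removes a product of PI3-kinase, read 7.97, 7.90 and 8.03 in shATAD3A arrays, against 9.63, 9.87 and 9.72 in shGFP arrays, a change of -1.77 with an SE of 0.0686 (limma adjusted p = 1.33e-05). Averaging its probe sets, including those in the low mode, gave -0.82. PIK3R1, the p85 alpha regulatory subunit, changed by -1.08 (limma adjusted p = 0.000634), while PIK3R3, another regulatory subunit, rose by 0.69 (limma adjusted p = 0.000179). FOXO1, a transcription factor that AKT keeps out of the nucleus, rose by 0.98 (limma adjusted p = 0.000396). The kinases AKT1 and AKT2 were called in opposite directions, at 0.43 and -0.48.

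**Figure D4:**
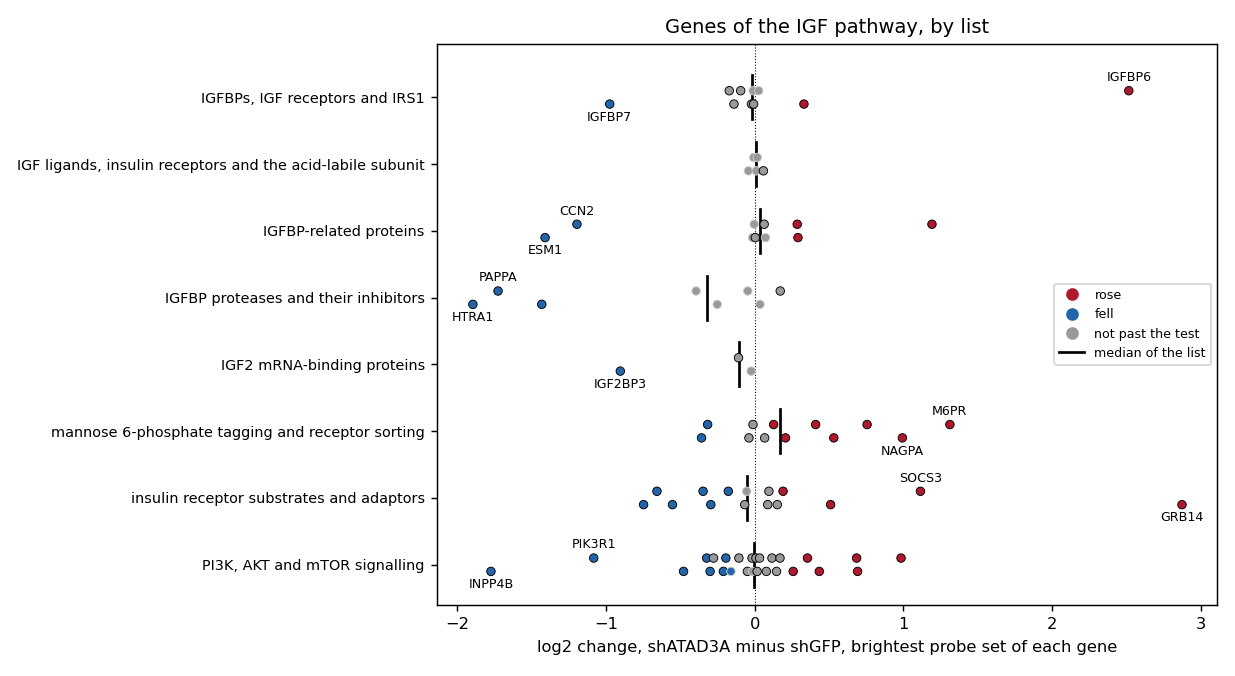
Log2 change (horizontal axis, shATAD3A minus shGFP) on the brightest probe set of each gene, by list, with red for a rise, blue for a fall, grey for genes that did not pass the test and a black bar for the list's median (black outlines for genes above the low mode, pale outlines for those in it). The medians lie between -0.32 (proteases and their inhibitors) and 0.17 (mannose 6-phosphate pathway), and IGFBP6 and GRB14 lie farthest to the right.

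The genes whose values over the 6 arrays, each taken relative to its shGFP mean, lay nearest to those of IGFBP6 were CDS1, AGR2 and AQP3. Their distances were 0.20, 0.22 and 0.23 log2 units (Euclidean, 6 arrays) and their changes 2.55, 2.60 and 2.56. Nearest to IGFBP7 were PM20D2, FAM221A and PGRMC2, with distances of 0.16, 0.18 and 0.20 and changes of -1.03, -0.95 and -0.99. With only 2 conditions, such nearness mostly reflects a change of like size.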

How the data were processed

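RNA of 6 MDA-MB-231 samples (3 shATAD3A, 3 shGFP, by their titles) was labelled with biotin from 250 ng and hybridised to 1 array each, per the labels' protocols. The deposited table holds 1 log2 value per probe set and array. The log2 scale was read from the range of the values. Scale, centring and probe summary are not stated in the labels, which name Partek alone, with no version (per the submitters' processing notes). Detection calls were not used here. After 62 control probe sets were set aside, the platform annotation of 2016 gave 1 symbol to 41091 probe sets, several to 1801 and none to 11721. Checking the symbols against the GRCh38.p14 gene table through Entrez IDs updated 0 of them.

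In R 4.3.3, limma 3.58.1 was fitted over all 54613 probe sets (lmFit, then eBayes; group as the only term, two-sided). A second fit used 1 probe set for each of 19775 genes (highest mean over the 6 arrays) for the pathway and marker lists. Members and lists were chosen with earlier results of these data known. All members were described. From each other list, up to 2 largest rises and 2 largest falls among called genes with non-overlapping groups were to be named, or else the smallest p; further genes were named after their values were seen. Other settings covered normalization, dim probe sets, variance prior, array weights, threshold, replicate block, left-out arrays and the probe set per gene. No array was a copy of another: at most 0.0165% of values were identical between a pair. Leukocyte markers gave 0 rises and 2 falls among 4 measured (CD14 and HLA-DRA), with HLA-DRA alone above the low mode. Of all genes 19.7% rose and 13.9% fell.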

Additional observations from a re-analysis of the deposited data

How the results depend on the processing

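Of 238 recomputed values of the 17 member probe sets above the low mode, 222 kept direction and side of the threshold, 7 lost a call (IGF2R 201392_s_at in each case), 4 gained one and 5 changed sign, all 5 from changes that were not called. The sign changes came with 1 array left out: IGFBP1 ranged from -0.090 to 0.096, IGFBP4 from -0.056 to 0.012 and IGF2R 1569052_at from -0.017 to 0.090. The count of 7 called member probe sets was 6 to 7 with 1 array left out, and 3 of 10 genes on 1 probe set per gene, where fewer features are counted. It was 9 after quantile normalization, 8 when arrays were weighted and 6 when arrays were centred on their medians. ATAD3A ranged from -0.56 to -0.37 with 1 array left out, and its change of -0.49 missed an adjusted p of 0.01. The count of 42 pathway genes called was 36 to 42 with 1 array left out and 26 without s_at and x_at probe sets, which left 63 genes. With the replicate number as a block, 6 member probe sets and 39 pathway genes were called. The shared numbers did not pair the arrays: same-numbered deviations correlated at -0.213, -0.106 and 0.038, and 1 of 6 arrays correlated best with its own number. Members in the low mode allow no statement about a change, and the calls of the low-mode genes FOXO4, LUM and CD14 give no reliable size.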

Other observations

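The chromosomal surroundings of the members were read from the order of genes in the GRCh38.p14 table, taking the 25 measured genes on either side. Of the 50 neighbours of IGFBP1 on chromosome 7, 0 rose and 16 fell by limma, with a median change of -0.031, although IGFBP1 and IGFBP3 themselves were not called. Over all genes 19.7% rose and 13.9% fell. Of the 50 neighbours of IGFBP6 on chromosome 12, 12 rose and 0 fell, with a median change of 0.014, and IGFBP6 had the largest change in that stretch. Around IRS1 on chromosome 2, 16 of 50 neighbours rose and 2 fell, while IRS1 read lower without passing the test. Around IGFBP7 on chromosome 4, 5 rose and 9 fell, with a median change of -0.00045. DNA copy number was not analysed here.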
